A study of Sus scrofa with 4 samples.

Results

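The genes described are 9 products of the acinar cell, namely CPA1, CPB1, PNLIP, CTRC, CEL, CLPS, CELA1, PRSS2 and GP2, out of 30282 gene identifiers measured. They were chosen by name, and the counts of all features carrying each name were summed, which gave 16 features, 7 of them extensions of a 3' end. The data are single-cell RNA sequencing libraries (10x Chromium 3') from pig, 2 of porcine pancreatic ductal organoids (PPDO), which are epithelial cultures grown from pancreatic ducts, and 2 of primary pancreas, the dissociated organ. The study derived its PPDO lines from pigs of different ages, cultured them at different passages in a medium with WNT3A, R-spondin, noggin, EGF and FGF10, and does not state in the labels which library is which. Primary pancreas came from postnatal wild-type and INS-eGFP landrace pigs. For sample 1 ducts were picked by hand before live cells were sorted. For sample 2 cells positive for the lectin DBA, INS-eGFP cells and the whole suspension were sorted and pooled, so neither library holds acinar cells at their share of the organ. It was assumed that these sample numbers are the replicate numbers of the labels.

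Acinar cells make and store the enzymes that digest food, package them in zymogen granules and release them into the ducts. Most are made as inactive precursors and become active in the gut. Their messenger RNAs are among the most abundant in any cell, and when acinar cells break during dissociation this RNA can enter the droplets of other cells. PRSS2 is a trypsinogen, CTRC a chymotrypsin that acts on trypsinogen, and CELA1 an elastase. CPA1 and CPB1 are carboxypeptidases. PNLIP is the pancreatic lipase, CLPS its cofactor colipase, and CEL the bile salt-dependent lipase. GP2 is not an enzyme but a glycoprotein of the zymogen granule membrane.

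In RefSeq (Sscrofa11.1), CPA1 lies on chromosome 18 at 18466564 to 18482099 and PRSS2 on chromosome 18 at 7443327 to 7446625. CPB1 is on chromosome 13 (89043822 to 89088387), PNLIP on chromosome 14 (126771920 to 126789097), CEL on chromosome 1 (272763203 to 272770259), CLPS on chromosome 7 (31618920 to 31621132) and GP2 on chromosome 3 (25496533 to 25518210), whereas no chromosome is given for CELA1. The feature named CTRC needs care. It carries the identifier ENSSSCG00000003458, which the reference name table gives to EFHD2, a calcium-binding protein, and no feature is named EFHD2. RefSeq places EFHD2 on chromosome 6 at 74651814 to 74668352 and CTRC at 74674836 to 74681311, 6484 bases apart. UMIs of EFHD2 and CTRC therefore cannot be told apart in this feature, and the main levels and make-up are also given without it, a setting chosen after seeing the data. For 7 of the other 8 genes the identifier and the symbol matched, and the identifier of CELA1 was not in the table.

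After filtering, 8885 and 7337 cells of PPDO 1 and 2 and 5679 and 4245 cells of primary pancreas 1 and 2 were used, with 76108131 to 300990276 unique molecular identifiers (UMIs, counted molecules) per library. Before filtering, between 10 and 23 cell barcodes were shared by each pair of libraries. Primary cells were clustered without the 9 genes, and classes were named from marker lists that leave them out. Levels are given as CPM, the UMIs of a gene for every 1000000 UMIs of the cells summed. Since the kit counts 3' ends, they were not scaled by transcript length. Intervals are exact Poisson or Clopper-Pearson 95% intervals and cover counting error only.

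Acinar-like cells were 257 of 5679 cells in primary pancreas 1 (4.53%, 95% interval 4.0 to 5.10) and 56 of 4245 in primary pancreas 2 (1.32%, 0.998 to 1.71). Of 12 matched acinar markers other than the 9 genes, 9 passed in each of the 2 acinar-like clusters, and the summed level of these markers was 48404 and 52710 CPM in primary pancreas 1 and 2. The endocrine list summed to 275 CPM in acinar-like cells of primary pancreas 1 and to 43273 in those of primary pancreas 2. Most of the latter was INS at 42409, the insulin transcript, and its part in the values of primary pancreas 2 was not tested.

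The 9 genes took 13.3% of all UMIs of acinar-like cells in primary pancreas 1 and 22.5% in primary pancreas 2, a mean of 17.9% ± 6.48 (SD, n = 2), or 15.4% ± 5.64 without CTRC. CLPS was the most abundant, with 32654 and 54128 CPM in primary pancreas 1 and 2. PRSS2 followed with 30468 and 49131, CPA1 with 20971 and 34084, and CTRC with 19740 and 31486. The lower order was CPB1 (7823 and 23273), PNLIP (8182 and 14386), GP2 (6497 and 10313) and CEL (6826 and 7799). CELA1 was far below the other serine proteases, with 172 and 306 CPM. Every gene was higher in the acinar-like cells of primary pancreas 2 than in those of primary pancreas 1, but this depended on which cells were counted. With a low-enzyme cluster of primary pancreas 2 (the unnamed cluster 8) added, a setting chosen after seeing the data, the 9 genes took 10.7% there, and of the 9 only CPB1 was higher than in primary pancreas 1. Each neighbour in this order overlapped the next over the 2 libraries, except that CEL did not overlap CELA1. Taken within each library, the order held in both, except that CPB1 and PNLIP changed places and so did GP2 and CEL.

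The share of UMIs on the 9 genes differed widely among acinar-like cells of primary pancreas 1. Cluster 23 (73 cells, all of primary pancreas 1) had a median share of 24.3% per cell, and 61 of its cells were at 20% or more. Cluster 13 had 184 cells in primary pancreas 1 with a median share of 1.10%, of which 134 were under 2% and 6 at 20% or more. In primary pancreas 2 the same cluster 13 held 56 cells with a median of 23.9%, the lowest at 8.22%. The enzyme-rich cells of the 2 libraries thus sat in different clusters but had nearly the same median share. The share of mitochondrial UMIs moved with it: its median was 0.0113% in cluster 23 and 0.115% in cluster 13 of primary pancreas 2, against 1.38% in cluster 13 of primary pancreas 1.

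**Figure D1:**
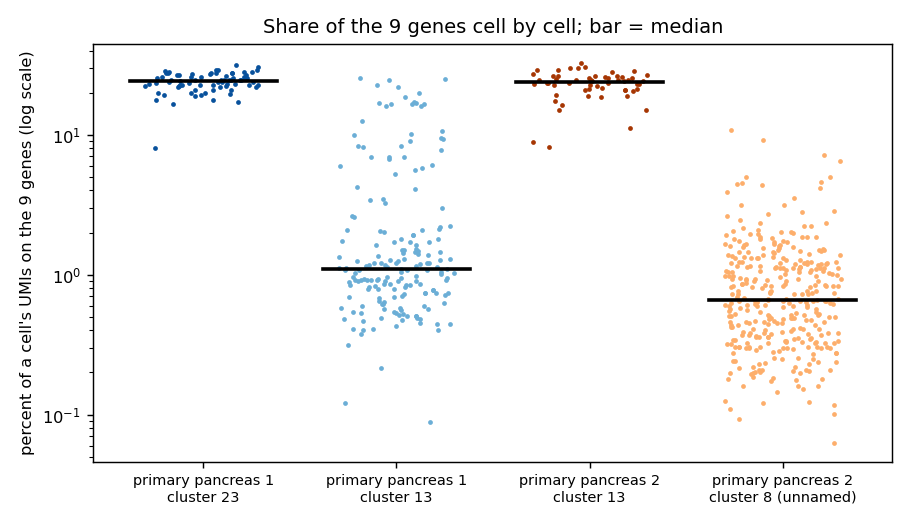
Percent of each cell's UMIs on the 9 genes (log scale), with 1 point per cell and a bar at the median, for the acinar-like clusters of each primary library and for unnamed cluster 8. Cluster 23 of primary pancreas 1 and cluster 13 of primary pancreas 2 sit at medians of 24.3% and 23.9%, and cluster 13 of primary pancreas 1 spreads from 0.0883% to 25.4%.

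A further 349 cells of primary pancreas 2 formed cluster 8, led by SPHKAP and EXTL1, which took no name because of its low depth (median 4049 UMIs). Its best marker list was the endocrine one (5 of 15 markers), as with doublets kept (8 of 15). With 1 filter for both primary libraries the cluster led by SPHKAP had the acinar list ahead (4 of 12). The acinar list was also ahead when the 9 genes were used for clustering and naming. At resolution 1.0 these cells fell into a cluster of 230 with the endocrine list ahead and a cluster of 119 with the acinar list ahead, so they are set beside the acinar-like clusters as an unnamed cluster only. Every one of these cells had a UMI of the 9 genes, with a median share of 0.660% per cell and 320 of 349 cells under 2%. GP2 and CPB1 led there, at 2999 and 2883 CPM, whereas CLPS was at 1639, PRSS2 at 1358 and CPA1 at 1382. GP2 thus made up 23.6% of the 9-gene UMIs in cluster 8 but 4.59% in the acinar-like cells of the same library. Within primary pancreas 1 it was 6.80% in cluster 13 and 3.80% in cluster 23. Of 6 transcription factors of the acinar programme, RBPJL (a partner of PTF1A), GATA4 and NR5A2 were at a higher level in the enzyme-poor cluster of each library, also without extension features. RBPJL was at 1266 CPM in cluster 13 of primary pancreas 1 and 1183 in cluster 8, against 90.6 in cluster 23 and 370 in cluster 13 of primary pancreas 2. In the same order GATA4 was at 255 and 160 against 9.06 and 51.5, and NR5A2 at 248 and 132 against 15.9 and 58.8. PTF1A was at 42.9 and 24.3 against 24.9 and 23.5, XBP1 at 79.0 and 95.2 against 68.0 and 120, and BHLHA15 at 21.4 and 18.9 against 30.6 and 36.8. The intervals of PTF1A and XBP1 overlapped in both libraries and that of BHLHA15 in primary pancreas 1. Without extension features PTF1A kept 11 and 1 UMIs against 2 and 4 (6.74 and 0.592 CPM against 2.27 and 2.94), and its intervals also overlapped. Ductal RNA moved with this contrast. The summed ductal list was at 519 and 1390 CPM in the enzyme-poor clusters against 36.2 and 131, and CFTR, the chloride channel of duct cells, at 36.7 and 59.7 against 1.13 and 8.82. NR5A2 was itself at 647 and 672 CPM in ductal-like cells of primary pancreas 1 and 2, and the part of ductal RNA in these values was not tested. These transcription factors were open to the clustering and are given as a description. Cluster 8 also held INS at 170763 CPM and a median of 1.62% mitochondrial UMIs, whose part in its values was not tested.

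**Figure D2:**
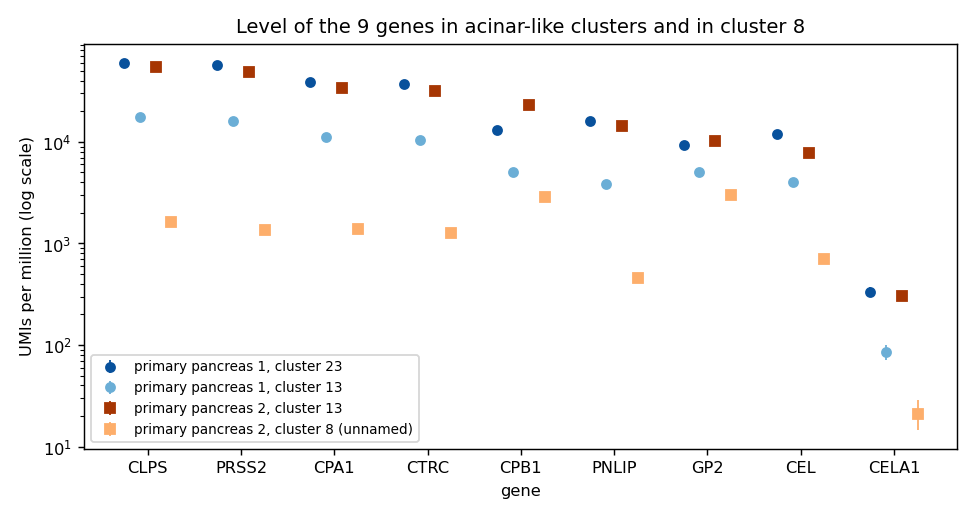
CPM (log scale) of each gene in the acinar-like clusters and in unnamed cluster 8, with exact Poisson 95% intervals, mostly smaller than the points. Cluster 23 of primary pancreas 1 and cluster 13 of primary pancreas 2 lie close together for CLPS (60226 and 54128), and in cluster 8 GP2 (2999) and CPB1 (2883) lie above CLPS (1639).

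Outside the acinar-like cells the 9 genes were found in all other classes, at levels that varied by class and library. Their sum was highest in unnamed cells, which were shallow. It was 2236 CPM in primary pancreas 1 (247 cells, median 1196 UMIs) and 12161 in primary pancreas 2 (369 cells, 349 of them cluster 8). In ductal-like cells the sum of the 9 genes was 727 CPM in primary pancreas 1 (95% interval 720 to 735) and 694 in primary pancreas 2 (683 to 704). Ductal-like cells were held by clusters 0, 5 and 12 in primary pancreas 1 and mostly by cluster 1 in primary pancreas 2. Just 3 cells of cluster 5 carried 4725 of the 17559 UMIs in the latter, at 6.46% to 10.5% of their own UMIs. Without the 1% of cells with most of these UMIs the mean of the 2 libraries was 553 rather than 711.

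In immune-like cells the sum was 791 and 386 CPM in primary pancreas 1 and 2, in endothelial-like cells 691 and 135, and in endocrine-like cells 303 and 127. These 3 classes were lower in primary pancreas 2 than in primary pancreas 1. Immune-like cells were held by clusters 9, 10 and 14 in both libraries. In this order they were at 515, 1155 and 761 CPM in primary pancreas 1, against 354, 328 and 618 (15 cells in cluster 14) in primary pancreas 2. Endothelial-like cells were mostly cluster 4 in primary pancreas 1 (683 of 1074) and cluster 16 in primary pancreas 2 (191 of 262). In their shared clusters 11 and 18 the sum was 324 and 255 CPM in primary pancreas 1, against 145 and 178. Of endocrine-like cells, 56 of 102 and 411 of 2179 were in cluster 7, at 591 and 369 CPM. Schwann-like cells of primary pancreas 1 were at 320, and primary pancreas 2 had 1 such cell. Stellate-like cells were at 367 in primary pancreas 1 and at 3610 in the 53 cells of primary pancreas 2. Most of them (441 of 753 and 42 of 53) were in cluster 6, led by ITIH4, MYH11 and ACTA2. Only 3 of 10 stellate markers passed in cluster 6, so the name is weakly borne out for it. The level in primary pancreas 2 rested on few cells, since its median cell had 0.0102% of UMIs on the 9 genes and its highest 11.8%. Without the 1% of cells with most of these UMIs the stellate-like mean fell from 1988 to 370, and the endothelial-like mean from 413 to 186. In primary pancreas 1 a single immune-like cell held 943 of the 4589 UMIs of its class. Without it immune-like cells were at 630 CPM there, and ductal-like cells without their own highest cell were at 703.

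**Figure D3:**
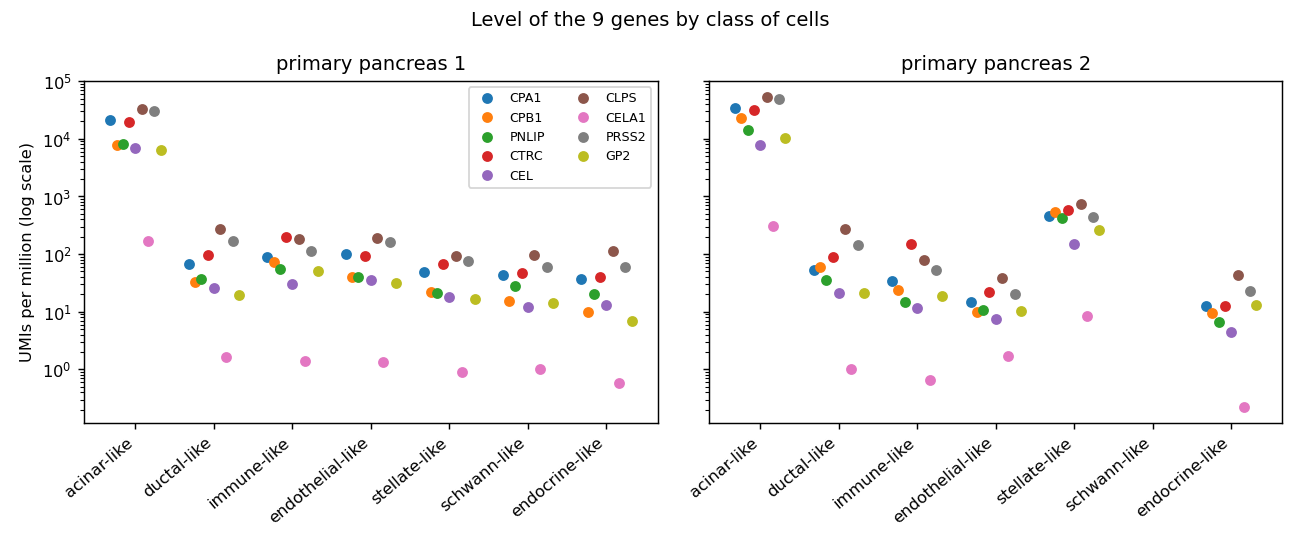
CPM (log scale) of each of the 9 genes, by class of cells, in primary pancreas 1 (left) and 2 (right), with 1 point per gene. Acinar-like cells lie above every other class for every gene, CELA1 is the lowest gene in each class drawn, and the stellate-like points of primary pancreas 2 are raised by few cells (schwann-like is not drawn there, with 1 cell).

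Relative to acinar-like cells of the same library, these levels were small. The median over the 9 genes was 0.451% of the acinar-like level in ductal-like cells of primary pancreas 1, from 0.302% for GP2 to 0.940% for CELA1. It was 0.277% in primary pancreas 2, from 0.156% for CPA1 to 0.499% for CLPS. Endocrine-like cells were at 0.200% and 0.0472%. Without CTRC these medians were 0.433% and 0.268% in ductal-like and 0.198% and 0.0523% in endocrine-like cells. The percentages of primary pancreas 2 depended on which cells were counted as acinar-like. With its unnamed low-enzyme cluster added, a setting chosen after seeing the data, CLPS there fell from 54128 to 25042 CPM. The other genes fell too. Relative to these levels, ductal-like cells of primary pancreas 2 were above those of primary pancreas 1 for every gene but CELA1. The lower ductal-like median of primary pancreas 2 thus rested on leaving that cluster out. INS, which ductal cells should lack, was at 102 CPM in ductal-like cells of primary pancreas 1 and at 7577 in those of primary pancreas 2.

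The make-up of the UMIs of the 9 genes, that is the share each gene took of them, also differed between classes. CLPS took 24.5% and 24.1% in acinar-like cells of primary pancreas 1 and 2, but 37.9% and 38.9% in ductal-like cells and 37.7% and 34.8% in endocrine-like cells. CPA1 went the other way, with 15.7% and 15.2% in acinar-like and 9.31% and 7.67% in ductal-like cells. The feature named CTRC took the most in immune-like cells, with 24.6% and 38.4% against 14.8% and 14.0% in acinar-like cells. In the 3 immune-like clusters of both libraries the CTRC feature took 21.1% to 45.1%. In primary pancreas 1, endothelial-like and stellate-like cells were close to the acinar-like make-up, with 3.39 and 4.99 percentage points of the UMIs distributed differently. Schwann-like cells were at 8.88, endocrine-like at 13.8, ductal-like at 14.2 and immune-like at 15.3. In primary pancreas 2 this was not so, with 14.4 for endothelial-like cells (392 UMIs of the 9 genes) and 15.6 for stellate-like cells. A single stellate-like cell of primary pancreas 2 held 1519 of the 1713 UMIs, so 15.6 is mostly its make-up. Without it the difference was 32.5 points. Ductal-like cells were at 14.9 there and immune-like cells at 24.7. In primary pancreas 1 a single endothelial-like cell held 1776 of the 8350 UMIs, and without it the difference was 3.03 points. The place of immune-like cells rested on the CTRC feature: over the other 8 genes they were 11.98 and 9.21 points from the acinar-like make-up in primary pancreas 1 and 2, less than ductal-like cells at 15.3 and 16.6. GP2 was 10.3% of the 9-gene UMIs in endocrine-like cells of primary pancreas 2 and 2.29% in those of primary pancreas 1.

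**Figure D4:**
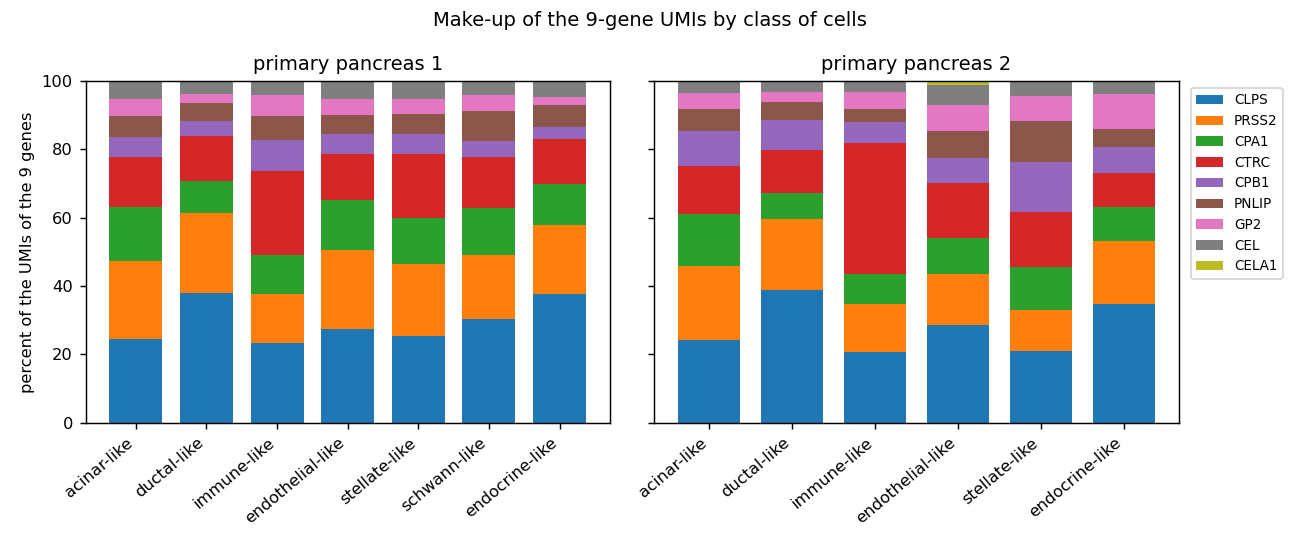
Percent of the UMIs of the 9 genes taken by each gene, by class of cells, in primary pancreas 1 (left) and 2 (right), with bars summing to 100. CLPS is wider in ductal-like (37.9% and 38.9%) and endocrine-like cells than in acinar-like cells, and CTRC is widest in immune-like cells (24.6% and 38.4%).

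Shares of cells with a UMI were compared after thinning every cell to 3000 UMIs, which left out 589 cells of primary pancreas 1 and none of primary pancreas 2. Before thinning the median depth was 17899.5 and 20558.5 UMIs in ductal-like cells and 9215.5 and 9809 in endothelial-like cells, which should lack the 9 genes. In thinned ductal-like cells of primary pancreas 1 and 2 CLPS was found in 47.8% and 42.1% (unthinned 85.7% and 86.1%), against 20.6% and 10.3% of endothelial-like cells (unthinned 49.1% and 27.9%). PRSS2 behaved alike, with 35.7% and 26.4% of thinned ductal-like cells and 18.8% and 6.87% of endothelial-like cells (unthinned 77.3%, 72.8%, 43.4% and 17.2%). Both genes were thus found in a larger share of ductal-like than of endothelial-like cells at 1 depth. The CTRC feature was found in 33.8% and 34.8% of thinned immune-like cells, against 23.03% and 17.6% of ductal-like cells (unthinned 60.3%, 69.5%, 69.3% and 63.2%). GP2 was found in 5.23% and 4.39% of thinned ductal-like cells and in 4.62% and 4.96% of immune-like cells (unthinned 17.2%, 15.8%, 10.6% and 12.1%). In acinar-like cells it was found in 96.8% and 100% (unthinned 98.8% and 100%).

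In PPDO the 9 genes summed to 11.2 CPM in PPDO 1 (95% interval 10.8 to 11.6) and 10.1 in PPDO 2 (9.71 to 10.5). Most of this was the CTRC feature, with 2914 and 2384 UMIs (9.68 and 9.09 CPM). Without it the other 8 genes were at 1.254 ± 0.350 CPM (SD, n = 2). CPA1 came next with 273 and 189 UMIs and CEL with 134 and 40. CELA1 had 19 and 17 UMIs, GP2 11 and 8, CPB1 6 and 3, CLPS 5 and 3, and PNLIP 4 and 3. PRSS2, one of the most abundant messages of acinar-like cells, had 0 UMIs in PPDO 1, where 3 UMIs would be 0.00997 CPM, and 1 UMI in PPDO 2. The order of the genes in PPDO was thus unlike that in acinar-like cells.

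The CTRC feature was spread over many PPDO cells, with a UMI in 2215 of 8885 and 1795 of 7337 cells and at most 7 UMIs in a cell. The median depth was 34176 and 34459 UMIs, and at 3000 UMIs per cell the share was 2.39% and 2.66%. The lowest primary class of at least 20 cells was endocrine-like of primary pancreas 2, with 4.13% of thinned cells and 12.7 CPM. It differed between PPDO clusters. The highest level was in cluster 7, led by SPP1 and WFDC2, with 16.1 and 18.1 CPM in PPDO 1 and 2. Cluster 2, led by MMP3 and GPNMB, was next with 12.1 and 12.7, and cluster 3, led by TIMP3 and ADM, was lowest with 4.36 and 3.98. CPA1 was also highest in cluster 7 in PPDO 1, at 5.17 CPM (95% interval 3.85 to 6.80), and at 1.65 (0.753 to 3.12) in PPDO 2, where its interval overlapped that of cluster 0 at 0.796 (0.618 to 1.009). Cluster 5 of PPDO 2 was at 1.22, but 17 of its 22 CPA1 UMIs were in 1 cell, and without that cell it was at 0.278.

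**Figure D5:**
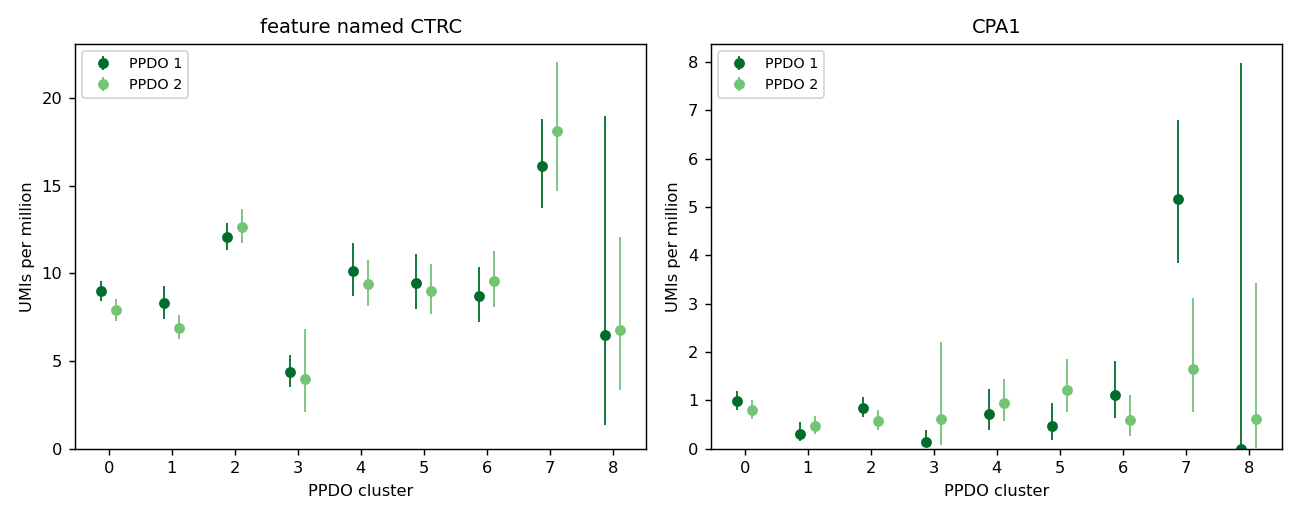
CPM of the feature named CTRC (left) and of CPA1 (right) in each PPDO cluster, with exact Poisson 95% intervals, for PPDO 1 and PPDO 2. The CTRC feature is highest in cluster 7 (16.1 and 18.1) and low in cluster 3 (4.36 and 3.98) of both libraries, and CPA1 is high in cluster 7 of PPDO 1 (5.17).

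The 9 genes took at most 0.0373% and 0.129% of the UMIs of a cell in PPDO 1 and 2, and the median of acinar-like cells was 1.72% and 23.9% in primary pancreas 1 and 2. The most of the 9 genes found in a cell was 4 in PPDO 1 and 2 in PPDO 2. Leaving out CTRC, 9 and 2 cells had UMIs of at least 2 genes. The cell of cluster 5 with 17 CPA1 UMIs in PPDO 2 had 13139 UMIs in all and no UMI of the other 8 genes. Barcodes also found in a primary library were carried by 28 and 27 PPDO cells, and these held 6 and 12 CTRC UMIs, 1 CELA1 UMI and none of the other 7 genes.

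The features behind the UMIs also differed. All 19 and 17 CELA1 UMIs of PPDO lay on the 3-kb extension of its 3' end and none on the gene itself, whereas the extension held 5.38% and 3.35% of CELA1 UMIs in primary pancreas 1 and 2. For CPA1 the extension held 14.3% and 13.8% in PPDO, against 0.0206% and 0.0389% in primary pancreas. For CEL it held 38.1% and 62.5% in PPDO, against 0.814% and 2.48%. For CLPS it held 4 of 5 and 2 of 3 UMIs in PPDO, against 0.414% and 0.388%, and for GP2 2 of 11 and 5 of 8. Extensions were also much used by CPB1 (41.2% and 44.1%) and GP2 (44.1% and 55.8%) in primary pancreas. CELA1 in PPDO is therefore listed from its extension alone, and neighbouring transcripts cannot be told apart from it.

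PPDO were compared with ductal-like cells of primary pancreas, with counts summed per library. All 9 genes passed the filter and all 9 were lower in PPDO, where 20.8% of the 23581 genes tested were lower and 43.5% changed in either direction. The count is no support by itself: CPB1, PNLIP, CLPS, CELA1, PRSS2 and GP2 passed the filter on low counts through the primary libraries alone, so they could be called in 1 direction only. CPA1, CTRC and CEL passed it in PPDO as well. CLPS had 276 and 270 CPM in ductal-like cells of primary pancreas 1 and 2 and 0.0166 and 0.0114 in PPDO 1 and 2, a log2 difference (PPDO minus primary) of -13.70 ± 0.29 (SE; edgeR quasi-likelihood test, adjusted p = 0.000295). Without its extension feature 1 UMI of CLPS remained in each PPDO library, too few for a fitted size. From 5 and 3 UMIs, the counting intervals of CLPS in PPDO 1 and 2 were 0.00539 to 0.0388 and 0.00236 to 0.0334 CPM. The SE of CLPS thus understates its uncertainty, and the same holds for CPB1, PNLIP and GP2, which also had few UMIs in PPDO. GP2 went from 19.6 and 20.9 to 0.0365 and 0.0305, a log2 difference of -8.74 ± 0.28 (adjusted p = 0.000345 by edgeR). CTRC had the smallest difference, from 95.9 and 87.8 to 9.68 and 9.09, at -2.84 ± 0.19 (edgeR adjusted p = 0.00108). CPA1 went from 67.7 and 53.2 CPM to 0.907 and 0.720, and CEL from 26.2 and 21.6 to 0.445 and 0.152 (log2 differences of -5.77 ± 0.31 and -5.88 ± 0.62, edgeR adjusted p = 0.000736 and 0.00313). CPB1 went from 32.4 and 60.5 to 0.0199 and 0.0114, and PNLIP from 36.9 and 35.6 to 0.0133 and 0.0114 (-10.95 ± 0.46 and -10.97 ± 0.30, edgeR adjusted p = 0.000501 and 0.000345). CELA1 was low in both, at 1.61 and 1.03 in ductal-like cells and 0.0631 and 0.0648 in PPDO (-3.93 ± 0.48, edgeR adjusted p = 0.00449), and without its extension feature no CELA1 UMI remained in PPDO. PRSS2 had 171 and 143 CPM in ductal-like cells (edgeR adjusted p = 0.000405), and its pooled level was 90667 times that of PPDO, with a counting interval of 16270 to 3581480 that rests on the single UMI in PPDO. The groups did not overlap for any of the 9 genes. The share of all genes tested without overlap was not counted, so this is a description only. As the levels in ductal-like cells were 0.156% to 0.940% of those in acinar-like cells, this comparison sets PPDO against low levels of each gene. The part of free RNA in it was not tested.

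Against all primary cells, all 9 genes were again lower, where 13.9% of the 24764 genes tested were lower in PPDO and 25.9% changed in either direction. Here 5 of them, CPB1, PNLIP, CLPS, PRSS2 and GP2, passed the filter through the primary libraries alone. The log2 differences ran from -5.60 ± 0.26 for CTRC to -15.73 ± 0.41 for CLPS (edgeR adjusted p of 0.00775 for each), leaving out PRSS2. Its pooled level in primary cells was 470309 times that of PPDO, with a counting interval of 84410 to 18576300 that rests on 1 UMI. GP2 was at 237 and 176 CPM in all primary cells, CPA1 at 764 and 432 and CLPS at 1300 and 736. With either PPDO library left out, which leaves 1 library in that group, no gene tested was called, so the 9 genes were not called either. All 9 stayed lower in PPDO there by their log2 differences. The 2 comparisons share the PPDO libraries.

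Of 25 other matched genes of the acinar programme, 23 passed the filter in the ductal-like comparison, and 20 were lower in PPDO, none higher, and 3 not called (DNASE1, GAMT and SLC39A5), where 20.8% of all genes tested were lower and 43.5% changed in either direction. Of the 23, 7 passed the filter through the primary libraries alone and could not be called higher (PNLIPRP1, PNLIPRP2, PLA2G1B, SPINK1, SERPINI2, CCKAR and PTF1A). CPB2 passed narrowly (edgeR adjusted p = 0.0492) and did not pass under any alternative. It was at 0 and 5.88 CPM in acinar-like cells of primary pancreas 1 and 2, so it was not an acinar gene here. GAMT was not specific to acinar cells either, at 26.6 and 57.3 CPM there against 56.5 and 54.9 in ductal-like cells. PLA2G1B, a phospholipase, was the most abundant of them in acinar-like cells (24805 and 26931 CPM in primary pancreas 1 and 2), followed by SYCN, a zymogen granule protein (6008 and 10539), the trypsin inhibitor SPINK1 (4753 and 6607) and the lipase-related PNLIPRP1 (6283 and 4416). PLA2G1B and PNLIPRP1 each had 0 and 1 UMIs in PPDO 1 and 2. SPINK1 was lower in PPDO by -9.46 on the log2 scale and SYCN by -3.98 (edgeR adjusted p = 0.000869 and 0.000641). CELA2A, an elastase next to CTRC in the genome, had 531 and 499 UMIs in PPDO (1.76 and 1.90 CPM) and a log2 difference of -3.18 (adjusted p = 0.00936). RNASE1 and PDIA2 were also lower, by -5.90 and -2.99 (adjusted p = 0.00134 and 0.00254), whereas the endonuclease DNASE1 had 38.5 and 35.0 CPM in PPDO and a log2 difference of 0.36 (adjusted p = 0.168). The size of several differences rested on UMIs of extension features. Without these features SYCN kept 0 and 1 UMIs in PPDO 1 and 2, too few for a fitted size. CELA2A kept 28 and 15 (log2 difference of -7.73), RNASE1 3 and 7 (-10.05) and PDIA2 6 and 5 (-7.25), with adjusted p of 0.00219, 0.000604 and 0.00074 by edgeR.

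Among acinar transcription factors, PTF1A had no UMI in either PPDO library. At a floor of 3 UMIs over both libraries this is at least 47.9-fold lower than ductal-like cells, which had 12 and 6 UMIs. Most PTF1A UMIs lay on extension features: in cluster 13, 11 of 70 remained without them in primary pancreas 1 and 4 of 32 in primary pancreas 2. PTF1A was not among the genes tested without these features. NR5A2 and XBP1 are not specific to acinar cells here. NR5A2 was at 167 and 58.8 CPM in acinar-like cells of primary pancreas 1 and 2 but at 647 and 672 in ductal-like cells, and had 11.6 and 2.79 CPM in PPDO 1 and 2, a log2 difference of -6.08 (edgeR adjusted p = 0.00528). XBP1 was at 139 and 230 CPM in ductal-like and 75.1 and 120 in acinar-like cells, and at 47.8 and 45.8 in PPDO. GATA4 was lower by -2.76, XBP1, a factor of the secretory pathway, by -1.49, BHLHA15 by -1.28 and RBPJL by -1.12 (edgeR adjusted p = 0.0175, 0.0058, 0.0406 and 0.0144). The call of BHLHA15 was lost under DESeq2 and when any library was left out, that of RBPJL without PPDO 1 and without extension features, and that of GATA4 without PPDO 2. Without extension features BHLHA15 was at -4.17, from 6 and 0 UMIs in PPDO, and RBPJL at -1.76. RBPJL was at 24.7 and 29.99 CPM in PPDO, of which 0.827 and 0.652 remained without extension features. In ductal-like cells it went from 85.7 and 78.3 to 4.59 and 2.01. Against all primary cells 19 of the 23 other acinar genes were lower and none higher, where 13.9% of all genes tested were lower and the same 7 genes could not be called higher. CPB2, GAMT, SLC39A5 and RBPJL were not called there, but each was called under an alternative. RBPJL was at -0.84 and, without extension features, at -4.53 (edgeR adjusted p = 0.112 and 0.0126), and SLC39A5 at -0.43 and -2.94 (0.349 and 0.0212). CPB2 was lower under DESeq2 and without primary pancreas 1 (adjusted p = 0.000401 and 0.00111), and GAMT was higher without primary pancreas 1 or 2 (0.00704 and 0.0484 by edgeR).

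The genes whose level followed the summed 9 genes most closely over 13 class sums of the 2 primary libraries, out of 503 genes ranked, were TFF2 (Pearson r = 0.997), SYCN (0.995), PLA2G1B (0.993), PNLIPRP1 (0.991), DPEP1 (0.987), PNLIPRP2 (0.986), KLK1 (0.986) and CELA2A (0.985). The class sums share libraries and 2 of them are acinar-like, so the correlation is a description. TFF2, a trefoil peptide, reached 5794 and 8137 CPM in acinar-like cells of primary pancreas 1 and 2. Each of the 9 genes followed the sum of the other 8 with r of 0.975 (CELA1) to 0.996 (CPA1).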

How the data were processed

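The titles gave each library's group and replicate number. The authors deposited raw UMI counts per feature and barcode, made with Cell Ranger 7.1.0 (per the file headers) and an in-house pig annotation. The authors also deposited lists of barcodes and features, which hold names and no measurement. The submitters' processing notes name the builds Sscrofa11.1 and GRCh38 without a role for either. The study removed free RNA with SoupX later, whereas the present counts are uncorrected.

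Features of 1 gene were summed. Cells were filtered by the study's limits, except that both PPDO libraries had the higher of its gene minimums (1000), since the labels do not say which library had 600, and 81 and 170 doublets were removed from primary pancreas 1 and 2 by Scrublet score. Cells were clustered with Scanpy 1.11.5 at resolution 0.5 without the 9 genes. Clusters took the name of the list with the highest mean fold among lists with at least 3 passing markers. They lost it if another list had more markers among the 10 leading genes of the cluster. They also lost it if their median depth was under 1/3 of that of their library and no marker of the list was among those 10 genes. The thresholds for naming were chosen with the clusters in view. Counts summed per library were tested with edgeR 4.0.16 (TMM, filterByExpr, glmQLFTest with no covariate, Benjamini-Hochberg threshold 0.05), with DESeq2 1.42.0 as an alternative. The SE is the log2 difference divided by the square root of F, and it understates counting error for genes with few UMIs in PPDO. On simulated data with the ductal-like comparison's dispersion, 50 of 50 genes changed 16-fold and 33 of 50 changed 4-fold were recovered. For all primary cells these were 50 of 50 and 7 of 50. Of genes changed 2-fold, 0 of 50 were recovered in the ductal-like comparison and 2 of 50 for all primary cells. The changed genes were drawn above a minimum level that CELA1 did not reach.

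By the study's methods the primary libraries came from 2 pigs processed on different days, which differ in genotype and cell selection, and the PPDO libraries from 2 lines at different passages. p-values measure the spread between these libraries. Named genes were the 9 genes and, of other acinar genes, the 8 most abundant, 6 transcription factors and any higher in PPDO, plus the 8 genes most like the sum of the 9 with at least 50 CPM in acinar-like cells. CPB2, GAMT and SLC39A5 were named after their values were seen, as the genes not called. The members and lists were chosen with earlier results of these data known. A minimum of 600 genes for PPDO, doublets kept, resolution 1.0, clustering with the 9 genes, 1 filter for both primary libraries, features without extensions, other filters and left-out libraries were tried as alternatives.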

Additional observations from a re-analysis of the deposited data

How the results depend on the processing

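Each of the 9 genes stayed lower in PPDO than in ductal-like cells, and past the threshold, under every alternative run, including DESeq2 and the fit with the replicate block. For CPB1, PNLIP, CLPS, CELA1, PRSS2 and GP2, which passed the filter through the primary libraries alone, the filter allowed this direction only. The replicate numbers share only a number (correlation of deviations -0.0093 and -0.021), and no pairing is stated. With the replicate block the genes called fell from 6410 to 2842 against all primary cells (1825 lower, 1017 higher) and from 10259 to 8282 against ductal-like cells, and all 9 genes were called in both. DESeq2 called 10214 genes against all primary cells (5725 lower, 4489 higher). With each library left out, the calls ranged from 4757 to 10739 against ductal-like cells (lower 2282 to 5265, higher 2475 to 5474) and from 0 to 13041 against all primary cells (lower 0 to 6640, higher 0 to 6401), and the 9 genes from 0 to 9. The edgeR counts of 0, without PPDO 1 or PPDO 2, left 5091 and 4838 genes at an unadjusted p under 0.05, among them all 9 genes, and DESeq2 was not run there. A lone library was assumed to vary like the other group. Without extension features SLC39A5 reversed, from 0.20 to -2.04 on the log2 scale in the ductal-like comparison, and no CELA1 UMI remained in PPDO, so the size of its difference has no fitted value there. The fitted fold moved by over 1.5 times for 14 of 31 genes in each comparison without these features, among them CPB1, CEL, CLPS and CELA1.

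The SD over 2 libraries was close to the mean in several classes, so large moves stayed under 1 SD there. The stellate-like level of 1988 CPM was 370 without the 1% of cells with most UMIs of the 9 genes and 394 when the 9 genes were clustered, and the endothelial-like level of 413 was 186 without those cells. The ductal-like level of 711 CPM was 797 with doublets kept, 553 without the 1% of cells with most UMIs of the 9 genes and 619 without CTRC. The schwann-like level of 320 was 286 and 272 under the latter settings. The PPDO level of 10.6 was 1.254 without CTRC. The share of acinar-like UMIs of 17.9% was 16.9% with 1 filter for both primary libraries and 12.03% when cluster 8 was counted as acinar-like. The settings without CTRC, with cluster 8, without the cell with most UMIs and, for the transcription factors by cluster, without extension features were chosen after seeing the data. With 2 libraries per group, simulated differences of 4-fold or less were mostly not detected against all primary cells (7 of 50 at 4-fold, 2 of 50 at 2-fold). Against ductal-like cells simulated differences of 2-fold were not detected (0 of 50).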
